A study of Mus musculus with 32 samples.

Results

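Erythroid cells were picked from 7 organs of the mouse embryo and are described here as a group of 73 cells. They were taken from the cells that the study placed in its hematopoietic major group, in any organ, by the levels of 3 genes. The level L is log2(TPM/10 + 1), where TPM scales a gene's count of unique molecular identifiers (UMIs, tags that mark single captured mRNA molecules) to 1000000 UMIs in every cell. A cell was a member when Alas2 and Slc4a1 were each at L of 3 or more and Fcer1g was below 3. Among 249 hematopoietic columns, 74 met the rule, and 2 of these held the same UMI number in every gene, so that they were counted as 1 cell. The study kept 1819 cells of 1916 sequenced.

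All cells came from C57BL/6J embryos, with no treatment or altered allele named: 3 E9.5 embryos, 2 E10.5 embryos and 2 E11.5 embryos, of which E9.5 embryo 2 was labelled female and the rest male. Forebrain, hindbrain, heart, lung, liver, intestine, somite and skin were dissected and trypsinized, single cells were drawn up by mouth pipette, and polyadenylated RNA was tagged with cell barcodes and UMIs. The libraries of E9.5 embryos 1 and 2 were sequenced on the HiSeq 2500 and all others on the HiSeq 4000. The liver libraries of E9.5 embryos 1 and 2 gave no cell of the hematopoietic group, so that all liver erythroid cells came from HiSeq 4000 libraries, and the day effect outside the liver cannot be told apart from the platform between E9.5 and the later days.

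Red cells form in the mouse embryo in more than 1 wave. Primitive erythroid cells arise in the yolk sac, circulate while they still have a nucleus and carry embryonic hemoglobin made of zeta (Hba-x), epsilon-y (Hbb-y) and beta-h1 (Hbb-bh1) chains. Definitive erythroid cells mature in the fetal liver and carry adult globin chains, and the factors Bcl11a and Sox6 are known to silence embryonic globin genes in them. In either kind, Alas2 starts heme synthesis and Slc4a1 is the band 3 anion exchanger of the red cell membrane, while Fcer1g is the gamma chain of Fc receptors in myeloid cells.

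The levels that chose the members spread widely above the limits. Alas2 ranged from 3.58 to 8.45 in the 73 cells (median 7.09), Slc4a1 from 4.11 to 8.55 (median 5.74) and Fcer1g from 0 to 2.89 (median 0.52). The nearest hematopoietic cells outside the rule were 3 cells of liver E11.5 embryo 2, with Alas2 and Slc4a1 at 2.65 and 4.73, 2.84 and 3.44, and 3.31 and 2.28. Hba-x and Hbb-y, which the rule did not use, were detected in all 73 cells, although Hba-x went down to 2.31 and Hbb-y to 3.83. Fcer1g alone kept out 0 cells.

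Of the 73 cells, 36 came from the liver, 12 from the hindbrain, 9 each from the forebrain and heart, 5 from the lung and 1 each from the intestine and somite. With identical columns counted once, they were 36 of 178 hematopoietic cells in the liver (20.2%, exact Clopper-Pearson 95% interval 14.6 to 26.9), 12 of 17 in the hindbrain, 9 of 16 in the forebrain, 9 of 16 in the heart and 5 of 7 in the lung. In skin 0 of 9 hematopoietic cells met the rule, which allows a share of up to 33.3%. Within the liver the share was 3 of 15 cells in E9.5 embryo 3, 3 of 40 and 3 of 41 in E10.5 embryos 1 and 2, 23 of 42 in E11.5 embryo 1 (54.8%, 38.7 to 70.2) and 4 of 40 in E11.5 embryo 2 (10%, 2.79 to 23.7). E11.5 embryo 1 thus held most of the liver erythroid cells, and the intervals of the E11.5 embryos did not overlap. Intervals and upper limits cover counting error only, and the shares also depend on which cells were picked.

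Embryos, not cells, are the replicates. For tests, L was averaged over the cells of an embryo in the liver and over its cells in all other organs, where at least 3 cells were present. This gave 5 liver means (E9.5 embryo 3, E10.5 embryos 1 and 2, E11.5 embryos 1 and 2, from 3, 3, 3, 23 and 4 cells) and 5 means of other organs (E9.5 embryos 1 and 2, E10.5 embryos 1 and 2, E11.5 embryo 1, from 3, 15, 6, 5 and 8 cells), and values below are listed in that order. The other organs differed in kind between embryos: all 3 cells of E9.5 embryo 1 came from the heart. The 73 cells held 25540 to 1431088 UMIs each (median 283578) and 2300 to 8870 detected genes.

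Compared with the other hematopoietic cells, the erythroid cells were rich in globin, heme synthesis and red cell membrane transcripts. This contrast is the one the rule drew, so it is described without a test, as the mean over 6 embryos of the erythroid mean minus the mean of the other hematopoietic cells. Among the largest positive differences in L were those of Hbb-bh1 (6.77), Hba-x (6.47), Alas2 (6.20), Hbb-y (5.67), Slc4a1 (5.34), the mitochondrial iron importer Slc25a37 or mitoferrin-1 (4.77), the metallothionein Mt2 (4.72), Mgst3 (4.51) and the erythroid nuclear protein Hemgn (4.33). The largest negative differences were those of the NADPH oxidase subunit Cyba (-4.11), Arhgdib (-3.79), Tagln2 (-3.52), the lysosomal membrane protein Laptm5 (-3.32), Fcer1g (-3.28), Gmfg (-3.28), Sh3bgrl3 (-3.15), the actin-sequestering thymosin Tmsb4x (-3.15), the leukocyte actin regulator Coro1a (-3.13) and the granule proteoglycan Srgn (-3.09). Over 12625 genes compared, 2.18% were higher and 25.0% were lower in all 6 embryos. Of heme synthesis genes other than Alas2, 7 of 7 were higher in all 6 embryos (median difference 2.76), as were 16 of 23 red cell membrane genes (median 2.10). Lower in all 6 embryos were 11 of 11 macrophage markers (median -1.19), 9 of 13 progenitor genes (median -1.02) and 10 of 13 glycolysis genes (median -1.53), beside a median of -0.20 over all genes.

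Within the 73 cells, the embryonic beta globin Hbb-y fell into separate ranges. It was at 3.83 to 7.36 in 27 cells and at 10.8 to 15.0 in 46 cells, and no cell lay between. The lower range held 22 of 23 cells of liver E11.5 embryo 1, 3 of 4 cells of liver E11.5 embryo 2, 1 of 3 cells of liver E10.5 embryo 2 and 1 heart cell of E11.5 embryo 1. The upper range held the remaining 10 liver cells, 1 from each E11.5 embryo among them, and 36 of 37 cells from other organs. The limit of 8 used below to name the ranges was chosen after the values were seen. The study assigned a definitive erythroid cluster by Sox6 and Bcl11a and a primitive one by Hba-x. The ranges were not compared with those clusters, and no cell type is assigned to a range here.

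**Figure D1:**
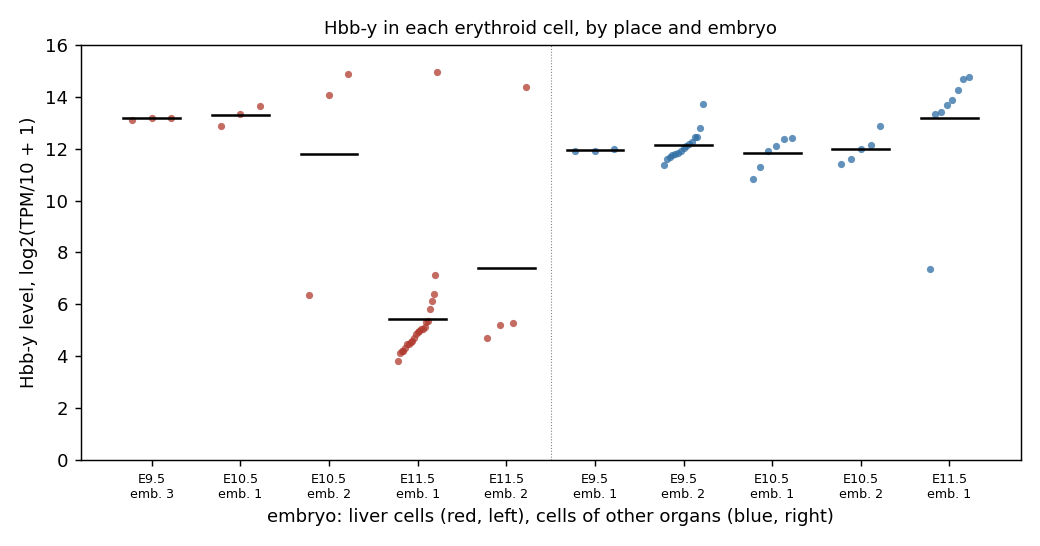
Level of Hbb-y (log2(TPM/10 + 1), vertical axis) in each of the 73 erythroid cells, by embryo, with liver cells in red on the left and cells of other organs in blue on the right. Black bars are embryo means. Most liver cells at E11.5 sit at 3.83 to 7.14, whereas 36 of 37 cells from other organs sit at 10.8 or above.

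Other genes were divided between the ranges. Given here as a description, Hba-x had a median of 5.39 in the lower range and 12.1 in the upper, and Hbb-bh1 a median of 6.16 and 12.1. Sox6 and Bcl11a had medians of 3.24 and 3.20 in the lower range and 0 in the upper, with L of 1 or more in 21 of 27 against 0 of 46 cells for Sox6 and 21 of 27 against 3 of 46 for Bcl11a. Tspo2, an erythroid relative of the mitochondrial translocator protein, reached L of 1 in 26 of 27 against 2 of 46 cells. The surface proteins Cd24a and Cd47 had medians of 7.74 and 6.07 in the lower range and 2.83 and 2.30 in the upper. Bpgm, the enzyme that makes 2,3-bisphosphoglycerate and so tunes the oxygen affinity of hemoglobin, was reversed, at 1.96 and 6.02. The erythroid factors Klf1 and Gata1 had medians of 6.76 and 4.36 in the lower range and 5.80 and 3.90 in the upper. Of the genes of the rule, Slc4a1 had medians of 5.74 and 5.81 and Alas2 of 5.54 and 7.35.

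The ranges of Hba-x and Hbb-bh1 were not separate. The cell of liver E10.5 embryo 2 in the lower range had Hbb-y at 6.36 but Hbb-bh1 at 13.3. Over the lower range Hba-x went up to 11.45 and Hbb-bh1 to 13.3, beside lowest levels of 10.41 and 10.54 in the upper range.

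The embryonic globin genes lie in the alpha and beta globin clusters, Hba-x at chr11:32276400-32278116, Hbb-y at chr7:103851749-103853216 and Hbb-bh1 at chr7:103841637-103843164 (GRCm38, GENCODE vM21). Because they changed together with day in the liver, the 150 bases before the RefSeq start of transcription are shown for Hbb-y (chr7:103853208-103853357, minus strand) and Hba-x (chr11:32276450-32276599, plus strand), as given by RefSeq on GRCm38.p6, the build of the files. Capitals mark AGATAA or TGATAA, the motif of GATA factors, CACCC, bound by Klf1 and its relatives, TGACCA, the motif of Bcl11a, and AACAAAG or AACAATG, a motif of Sox factors, on either strand.
Hbb-y: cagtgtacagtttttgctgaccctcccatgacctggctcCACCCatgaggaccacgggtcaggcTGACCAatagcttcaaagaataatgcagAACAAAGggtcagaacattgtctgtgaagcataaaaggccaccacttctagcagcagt
Hba-x: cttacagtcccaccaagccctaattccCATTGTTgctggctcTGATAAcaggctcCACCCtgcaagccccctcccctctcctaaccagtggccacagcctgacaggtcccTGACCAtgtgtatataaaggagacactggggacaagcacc
Both promoters held CACCC, the Bcl11a motif and a Sox motif, and the Hba-x promoter also held a GATA motif. No match overlapped another. Over 32851 promoters of the same length, CACCC was present in 37.4%, AGATAA or TGATAA in 9.65%, TGACCA in 6.99% and AACAAAG or AACAATG in 4.65%. A match describes these letters and is no evidence of binding.

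The embryo means of embryonic globin transcripts fell with day in the erythroid cells of the liver. They were taken over both ranges of Hbb-y. The lower range held 0, 0, 1, 22 and 3 of the 3, 3, 3, 23 and 4 liver cells. In the upper range, liver Hbb-y was 13.1 to 13.2 at E9.5, and 12.9 to 13.6 and 14.1 to 14.9 at E10.5. It was 15.0 and 14.4 in the 1 such cell of each E11.5 embryo. Slopes within a range were not tested. The liver means of Hbb-y were 13.16, 13.27, 11.77, 5.42 and 7.39, and those of the other organs were 11.93, 12.13, 11.81, 12 and 13.16. Both E11.5 liver means were below the other 8 means, an order that 1.57% of the 9500 genes tested showed. The slope of Hbb-y in liver was -3.77 ± 0.40 (SE) per day (adjusted p = 2.25e-06, limma on 10 means), against 0.47 ± 0.40 in other organs, where it did not pass. The difference of the slopes, -4.23 ± 0.57, passed its own test (adjusted p = 0.000289, limma).

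Hba-x followed the same course. Its liver means were 12.83, 12.73, 10.92, 5.29 and 9.16, and those of other organs 11.70, 11.98, 11.45, 11.41 and 12.46. The slope in liver was -3.06 ± 0.42 per day (adjusted p = 0.00023, limma) and the difference of slopes -3.26 ± 0.60 (adjusted p = 0.0153). For Hbb-bh1 the liver means were 12.92, 12.70, 13.29, 6.27 and 10.39 and the other organs stayed between 11.52 and 11.81. Its slope in liver was -2.63 ± 0.44 (adjusted p = 0.00323, limma), while the difference of slopes, -2.57 ± 0.63, missed the threshold (adjusted p = 0.111, limma). Thus the liver means of all 3 genes fell with day, and limma called the slope lower in liver than in other organs for 2 of 3. By edgeR the slope was called lower in liver for 3 of 3.

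The slopes in liver of Hbb-y and Hba-x kept their call without any single embryo. That of Hbb-bh1 was lost without E10.5 embryo 1, E11.5 embryo 1 or E9.5 embryo 2. All 3 were lost, with the same direction, when the HiSeq 2500 means, none of them from liver, were left out of the fit. The slope differences of Hbb-y and Hba-x were lost without E11.5 embryo 1, the sole embryo with erythroid cells of other organs at that day. That of Hba-x was also lost without 4 other single embryos and in thinned cells. It was lost as well when the other genes were scaled per 1000000 UMIs that are not globin UMIs. Globin genes kept their own values there, so that setting did not rescale Hba-x.

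The proportions among embryonic globins were also given. In cells with Hbb-y at 8 or above, Hbb-y made a median of 52.2% and 55.3% of the UMIs of Hbb-y and Hbb-bh1 in the other organs of the E9.5 embryos, 54.2% and 57.5% in those of the E10.5 embryos and 70.4% in those of E11.5 embryo 1. In liver the medians were 54.4%, 60.9%, 69.4%, 75.8% and 65.6%, the last pair from 1 cell each. These shares were not tested.

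The 3 genes together took a large part of the RNA in many cells. Their share of UMIs, averaged within an embryo, was 24.2%, 23.8%, 34.7%, 3.08% and 12.5% in liver and 10.8%, 13.2%, 10.1%, 10.55% and 31.4% in other organs. The highest share in a cell was 57.7%, in liver E11.5 embryo 1, and the lowest, 0.0283%, came from the same liver. The liver and other groups overlapped widely: the means were 19.6% ± 12.2 and 15.2% ± 9.15 (SD, n = 5 each), and the difference of 4.44 percentage points had p = 0.532 in an exact permutation test (two-sided, adjusted p = 0.720 over 4 single values, smallest possible p 0.00794). Embryo means of log10 UMIs per cell were 5.41 ± 0.24 in liver and 5.50 ± 0.21 elsewhere (exact permutation p = 0.540). Genes detected after thinning to 100000 UMIs, which left out 10 shallower cells, averaged 4508 ± 400 in liver (n = 4) and 4934 ± 416 elsewhere (n = 5; exact permutation p = 0.206).

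**Figure D2:**
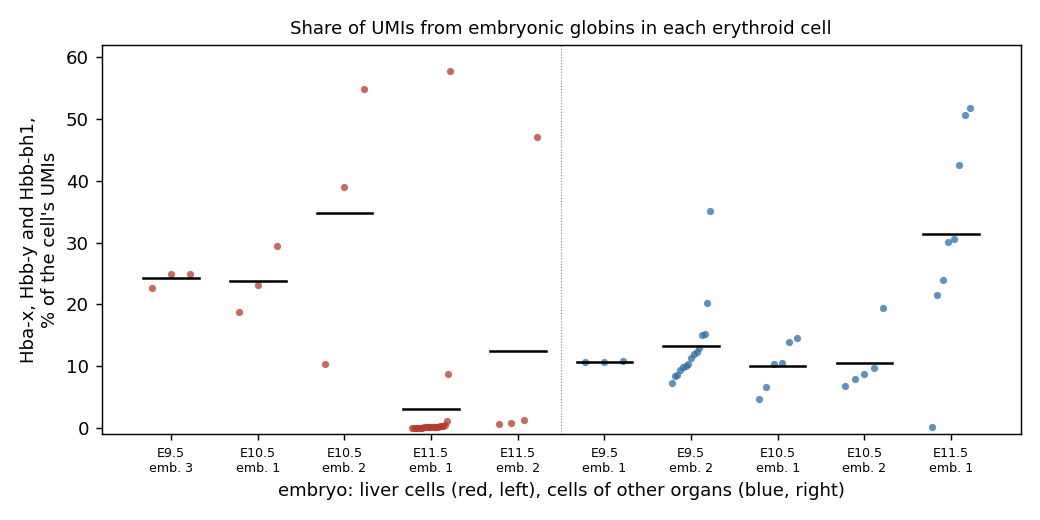
Percentage of each cell's UMIs that came from the embryonic globins Hba-x, Hbb-y and Hbb-bh1 (vertical axis), by embryo, with liver cells in red, cells of other organs in blue and black bars for the embryo means. The E11.5 embryo 1 means are 3.08% in liver and 31.4% in other organs, the lowest and the second highest of the 10.

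Adult globin transcripts could not be measured. The 6 adult alpha and beta globin genes held 6 UMIs in all, against 1188113 UMIs of Hbb-y alone. Adult globin genes are near-identical copies, and the authors kept uniquely mapped reads, so no statement is made on adult globins. The adult share of beta globin UMIs was 0 in 9 of 10 embryo means. Of the theta globin Hbq1b, which has a near copy in Hbq1a, 8396 UMIs were found in 71 of the 73 cells.

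Over 9500 genes, 24 passed the test of a slope on day in liver (0.253%), at adjusted p under 0.05 and a slope of 0.5 or more per day, 16 rising (0.168%) and 8 falling (0.0842%). Cd24a, a surface glycoprotein, had liver means of 2.18, 2.39, 4.99, 7.53 and 7.02 and other means of 3.80, 2.06, 3.53, 3.33 and 5.08. Its slope was 2.69 ± 0.41 (adjusted p = 0.00111, limma). Cd47, the surface signal that restrains engulfment by macrophages, was at 1.63, 3.02, 2.66, 5.76 and 5.40 in liver and at 1.04 to 3.07 elsewhere (slope 2.08 ± 0.37, adjusted p = 0.00542). For both genes the E11.5 liver means were above all others, which 3.78% of genes showed. These means, too, were taken over all cells, whatever their range of Hbb-y, and slopes within a range were not tested.

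Tspo2 was at 0.00, 0.00, 1.03, 4.23 and 3.82 in liver and, outside the liver, above 0 in E11.5 embryo 1 alone, at 1.05 (slope in liver 2.23 ± 0.38, adjusted p = 0.00323, limma). Before E11.5, Tspo2 reached L of 1 in fewer than the 3 cells that the gene filter needs. It thus entered the test through E11.5 cells, and its rising sign was given by that filter. Galectin-1 (Lgals1, slope 1.79 ± 0.32), Fam111a (1.79 ± 0.35), a protease tied to DNA replication, and the tetraspanin Tspan8 (1.72 ± 0.33) rose as well. Each of these 6 genes lost its call without E11.5 embryo 1. Cd47 was the sole one of the 6 that also passed the count test of edgeR, where Cd24a had a slope of 1.94 with adjusted p = 0.351.

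The other genes that fell in liver were Pdzk1ip1, a small membrane protein (-1.80 ± 0.37), the imprinted noncoding RNA H19 (-1.78 ± 0.39), 1700026L06Rik (-1.77 ± 0.36), Bpgm and C1qtnf4. Bpgm had liver means of 5.78, 5.20, 4.30, 2.44 and 2.67 and other means of 6.73, 5.61, 6.24, 4.51 and 5.95 (slope -1.70 ± 0.35, adjusted p = 0.0244, limma). H19 went from 6.11 in the E9.5 liver to 1.64 and 3.43 at E11.5, and outside the liver it lay between 4.22 and 6.59. Its difference of slopes was -0.64 ± 0.55, so a fall particular to the liver was not shown.

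The count of calls and their direction moved with the scaling and the tool. Per 1000000 UMIs that are not globin UMIs, 6 genes rose and 8 fell in liver, and edgeR on summed UMIs called 21 (0.221%), 7 rising and 14 falling. Without E11.5 embryo 1 there were 2 calls, both falling. Leaving out E10.5 embryo 2 gave 28 calls, and leaving out any of the other embryos gave 6 to 11.

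**Figure D3:**
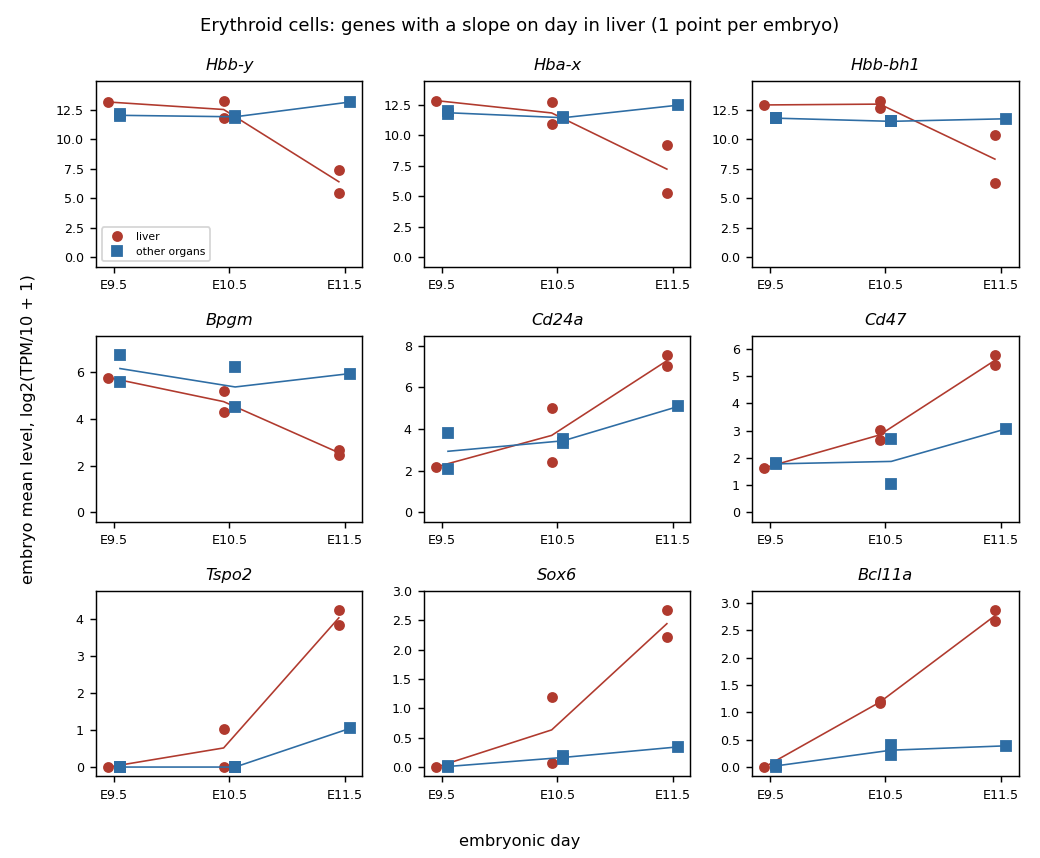
Embryo means of the level (log2(TPM/10 + 1), vertical axes) against embryonic day for 9 genes, with 1 point per embryo, liver in red circles and other organs in blue squares; lines join the means of each day. In liver the means of the 3 embryonic globins and Bpgm fall from E9.5 to E11.5, and those of Cd24a, Cd47, Tspo2, Sox6 and Bcl11a rise. Means are over all cells of an embryo, whatever their range of Hbb-y.

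Few regulators of erythroid genes passed a test. Of 18 transcription factors tested, 2 rose and 0 fell in liver (limma), with a median slope of 0.57 beside 0.04 over all genes. Among the 18, 6 had an unadjusted p under 0.05, and edgeR called 0. Bcl11a was at 0.00, 1.16, 1.21, 2.67 and 2.87 in liver and at 0.00 to 0.40 elsewhere (slope 1.41 ± 0.30, adjusted p = 0.0305). Sox6 was at 0.00, 0.07, 1.20, 2.67 and 2.22 in liver and at 0.00 to 0.34 elsewhere (slope 1.31 ± 0.29, adjusted p = 0.0319). Before E11.5, Sox6 reached L of 1 in fewer than the 3 cells that the gene filter needs. It thus entered the test through E11.5 cells, and its rising sign was given by that filter. For neither was the difference of slopes called (adjusted p = 0.238 for each, limma).

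The master factor Gata1 lay between 2.37 and 4.97 in all 10 means, Klf1 between 5.09 and 6.76 and Tal1 between 1.76 and 3.60, and none of these passed any test of limma or edgeR. Myb, a factor of progenitors, was at 1.62 in liver E10.5 embryo 1 and at 0.23 or below in the other means.

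The study named 7 surface and transcription factor genes for definitive erythroid cells and 5 factors for primitive ones. It chose them on these samples, so they are no independent evidence. For Bcl11a, Cd47 and Cd24a it also ran single-cell qPCR on further cells of E11.5 liver and E10.5 brain, and it reported matching results. Of the first list, 4 of 7 rose in liver: Bcl11a, Cd24a, Cd47 and Sox6, the last with the filter limit given above. Hmgb3, E2f4 and Tfdp1 had slopes of 1.20, 1.06 and 0.47 that did not pass limma. By edgeR 2 of 7 rose in liver, Cd47 and Hmgb3. Of the second, 0 of 5 passed limma (1 had an unadjusted p under 0.05 and edgeR called 1, Id3, falling). The slopes in liver of Id3, Arid3a, Lmx1a, Tcf7l2 and Sox11 were -0.95, -0.84, -0.04, -0.51 and -0.10. Between places 0 of 5 were called by limma, although 5 had an unadjusted p under 0.05, with a median difference of -1.26, and edgeR called 1, Id3, lower in liver.

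Few heme, iron and membrane genes passed a test. The 7 heme synthesis genes other than Alas2 gave 0 calls in each of the 4 tests of limma and edgeR, and 0 reached an unadjusted p under 0.05. Urod, the uroporphyrinogen decarboxylase of the pathway, lay between 5.34 and 7.16 in all 10 means. Of 15 iron genes 0 passed limma in any comparison (2 to 6 had an unadjusted p under 0.05), edgeR called 2 rising in other organs and 3 with a lower slope in liver, and the transferrin receptor Tfrc lay between 3.89 and 5.75. Of 23 membrane genes, Cd47 rose in liver and the nucleoside transporter Slc29a1 fell in other organs, from 4.73 and 5.24 at E9.5 to 1.87 at E11.5 (slope -1.39 ± 0.35, adjusted p = 0.0432, limma). In other organs edgeR did not call Slc29a1 (adjusted p = 0.53) and called 2 membrane genes rising, Cd47 and the Rh antigen gene Rhd. The erythropoietin receptor Epor lay between 2.93 and 4.90.

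Genes of organelle clearance did not pass in any of the 4 comparisons in 12 genes tested, by limma or edgeR, with at most 1 gene at an unadjusted p under 0.05. Slopes in other organs were above 0 in 12 of 12 (median 0.28 beside -0.16 over all genes), and in liver in 8 of 12. Differences between places were below 0 in 12 of 12 (median -0.25 beside -0.09). Bnip3l, which takes mitochondria to autophagy, ranged from 3.35 to 5.68. Car1, the adult carbonic anhydrase, was at 0.00 in all 5 other means and at 1.33 and 0.95 in the E11.5 livers (slope 0.61 ± 0.15, adjusted p = 0.0936, limma).

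Of 13 red cell metabolism genes tested, Bpgm alone passed, and markers of other blood lineages passed no test. For 9 macrophage, 8 progenitor, 4 megakaryocyte and 2 granulocyte or mast cell markers tested, limma and edgeR each called 0 in all 4 comparisons, and at most 2 of any list had an unadjusted p under 0.05. Summed over 11 genes, the macrophage markers made at most 1.43 UMIs per 10000 in a liver erythroid cell. Endothelial, mesenchymal and epithelial markers, of which 1, 3 and 2 were tested, also gave 0 calls by either tool, with up to 3 at an unadjusted p under 0.05.

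Cell cycle genes were examined with the study's G1/S and G2/M lists, which were taken up after values had been seen. In liver 2 of 54 G2/M genes passed, both rising: Cdca8 of the chromosomal passenger complex (slope 1.60 ± 0.34) and Cenpa, the centromeric histone (1.50 ± 0.33). Estimates were above 0 in 50 of 54 genes, with a median of 0.66 beside 0.04 for all genes. The E9.5 liver mean, from 3 cells, was low: mean L over the G2/M list was 2.06 there, 2.93 and 2.62 at E10.5, and 3.49 and 3.39 at E11.5. Of 43 G1/S genes, 0 passed in liver (limma; 9 had an unadjusted p under 0.05 and edgeR called 0). In other organs 41 of 43 G1/S estimates were below 0, and the replication helicase subunit Mcm5 passed, falling from 4.49 and 3.81 to 1.12 (slope -1.37 ± 0.35, adjusted p = 0.0485, limma).

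In other organs 86 genes passed the slope test (0.905% of 9500), 5 rising (0.0526%) and 81 falling (0.853%). The median slope over all genes was -0.16, so the falls are to be read against that shift. Spermidine synthase (Srm) had means of 6.01 and 5.55 at E9.5, 4.37 and 2.90 at E10.5 and 1.01 at E11.5 (slope -2.35 ± 0.35, adjusted p = 0.00172, limma). Nhp2, a protein of small nucleolar ribonucleoproteins, had means of 6.72, 6.96, 6.13, 5.81 and 2.29 (slope -2.08 ± 0.33, adjusted p = 0.00262). The exosome subunit Exosc7 (-1.94 ± 0.39), the nucleolar protein Lyar (-1.93 ± 0.39) and the phosphatase Ptpn11 (-1.92 ± 0.40) fell as well. In 4 of these 5 genes, Ptpn11 excepted, the E11.5 mean was more than 1 below the lowest of the other 4 means.

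Mrap, an accessory protein of melanocortin receptors, had slopes of opposite sign. It was at 4.89, 4.80, 3.60, 3.15 and 0.75 in other organs (slope -1.97 ± 0.34, adjusted p = 0.00783, limma) and at 2.49, 2.54, 3.06, 4.60 and 4.51 in liver (1.13 ± 0.34, adjusted p = 0.214). The difference of slopes was 3.10 ± 0.48 (adjusted p = 0.00185, limma). Pdzk1ip1 had the reverse pattern, at 3.94, 2.40, 5.11, 5.42 and 5.62 in other organs and 5.14, 2.09, 3.55, 1.28 and 1.55 in liver (difference -3.15 ± 0.53, adjusted p = 0.00513). With Hbb-y and Hba-x these were the 4 genes whose slopes differed (0.0421%), 1 with a higher (0.0105%) and 3 with a lower slope in liver (0.0316%). By edgeR 20 slopes differed (0.211%), these 4 genes among them, 2 higher and 18 lower in liver.

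Of 13 glycolysis genes, 13 had estimates below 0 in other organs and 12 above 0 in liver. The median slopes were -0.60 and 0.39, beside -0.16 and 0.04 over all genes. The sole call of limma was lactate dehydrogenase Ldha in other organs, at 7.02, 6.62, 5.83, 5.76 and 3.92 (slope -1.39 ± 0.30, adjusted p = 0.0215, limma), and edgeR called 0 of the 13.

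The rising genes in other organs were Ackr3, a scavenger receptor of chemokines (0.86, 0.09, 1.32, 1.58 and 3.60, slope 1.48 ± 0.33), 4930455G09Rik (1.17 ± 0.23), Fabp7 of radial glia (0.90 ± 0.21), Dcx of young neurons (0.61 ± 0.13) and Il1bos (0.60 ± 0.13). Il1bos lies opposite Il1b, and whether counting used strand is not given in the sources used here. Dcx is a neural marker, and brain cells made up 5 of 8 cells of the E11.5 mean, 6 of 6 and 2 of 5 cells at E10.5 and 0 of 3 and 8 of 15 cells at E9.5. The part of that makeup in the rise of Dcx and Fabp7 was not tested.

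All slopes outside the liver rested on few embryos. Without E11.5 embryo 1 or E9.5 embryo 2, or with HiSeq 4000 means only, limma called 0 genes (529, 1569 and 824 had an unadjusted p under 0.05), and without E9.5 embryo 1 it called 2. Without E10.5 embryo 2 it called 228. On summed UMIs edgeR called 38 genes (0.4%), 32 rising and 6 falling, and per 1000000 UMIs that are not globin UMIs limma called 10 rising and 52 falling. Falls thus outnumbered rises in limma with and without globin UMIs, and rises outnumbered falls in edgeR, which also pools cells and scales libraries otherwise. The 6 steepest falling genes and the 5 rising genes named here kept their direction under each alternative run for them. The mean globin share of 31.4% in E11.5 embryo 1 stands beside these falls, and its part in them was not tested beyond that rescaling.

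**Figure D4:**
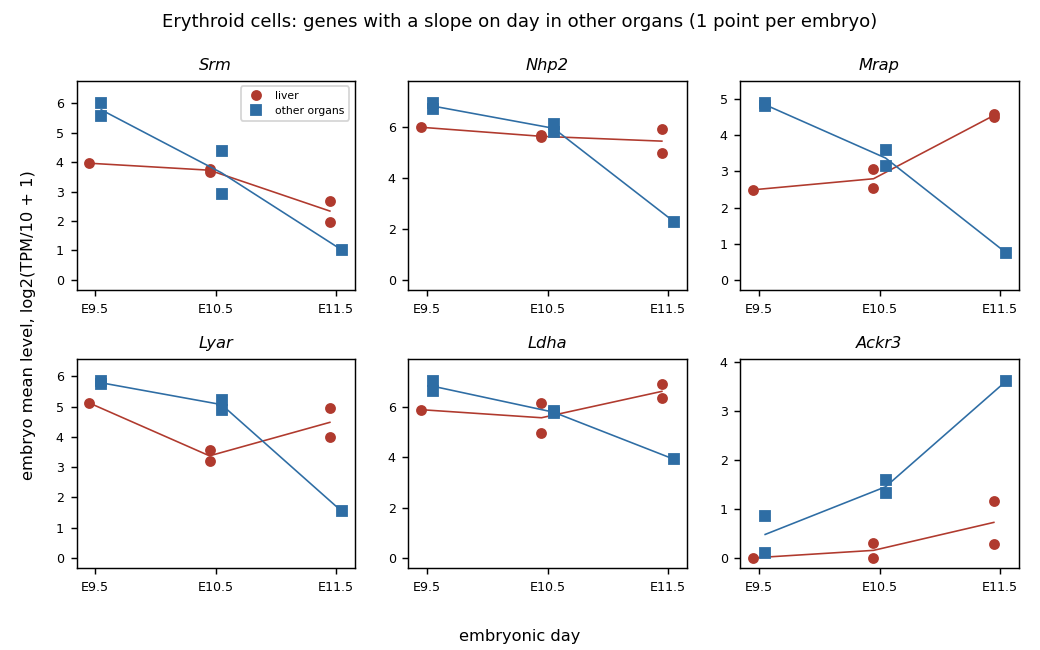
Embryo means of the level (log2(TPM/10 + 1), vertical axes) against embryonic day for 6 genes that had a slope on day in other organs, with other organs in blue squares and liver in red circles; lines join the means of each day. The single E11.5 point of other organs is the lowest of its group for Srm, Nhp2, Mrap, Lyar and Ldha and the highest for Ackr3.

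Read at E10.5, 16 of 9500 genes (0.168%) differed between liver and other organs, 5 higher (0.0526%) and 11 lower in liver (0.116%), at a difference of 1 or more. All 16 had the same sign in the 3 embryos with both places. These embryos were part of the fit that called the genes, so this is no separate evidence. The 5 higher genes were hepatoblast markers. Alpha-fetoprotein (Afp) had liver means of 4.54, 5.26, 3.27, 3.63 and 3.68 and other means of 0.00, 0.18, 0.00, 0.00 and 0.00 (difference 4.15 ± 0.40, adjusted p = 1.81e-07, limma). Apoa2, Rbp4, Apoa1 and transthyretin (Ttr) differed by 2.72 ± 0.37, 2.54 ± 0.37, 1.87 ± 0.36 and 1.53 ± 0.32. Afp, Rbp4, Apoa1 and Ttr stayed below L of 1 in every erythroid cell outside the liver, so they entered the test through liver cells alone and their sign was given by that filter.

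Afp transcripts were in every liver erythroid cell. Afp was at 1.94 to 6.84 in all 36 liver erythroid cells and also in all 142 other hematopoietic cells of the liver (0.83 to 9.63, median 2.90). Hnf4a, the hepatoblast transcription factor, had a UMI in 2 of 36 cells. The summed list of 10 hepatoblast markers made 1.18 to 19.0 UMIs per 10000 in liver erythroid cells and at most 0.406 in cells of any other organ.

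The other organs had their own such transcripts. The atrial myosin light chain Myl7 was at 5.08 to 8.16 in all 9 heart erythroid cells and at 4.43 to 6.94 in all 7 other hematopoietic heart cells, and the 8 cardiomyocyte markers made 12.2 to 76.5 UMIs per 10000 in the former. In lung erythroid cells Myl7 was at 1.74 to 2.46, and it had no UMI in the forebrain cells. The neuronal tubulin Tubb3 had UMIs in 12 of 12 hindbrain and 8 of 9 forebrain erythroid cells, with medians of 3.15 and 2.18, and in 2 of 36 liver cells. For all other kept cells of the organs the medians were 3.55 for Afp in liver, 9.38 for Myl7 in heart, 5.85 for Tubb3 in hindbrain and 3.91 for Tubb3 in forebrain.

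**Figure D5:**
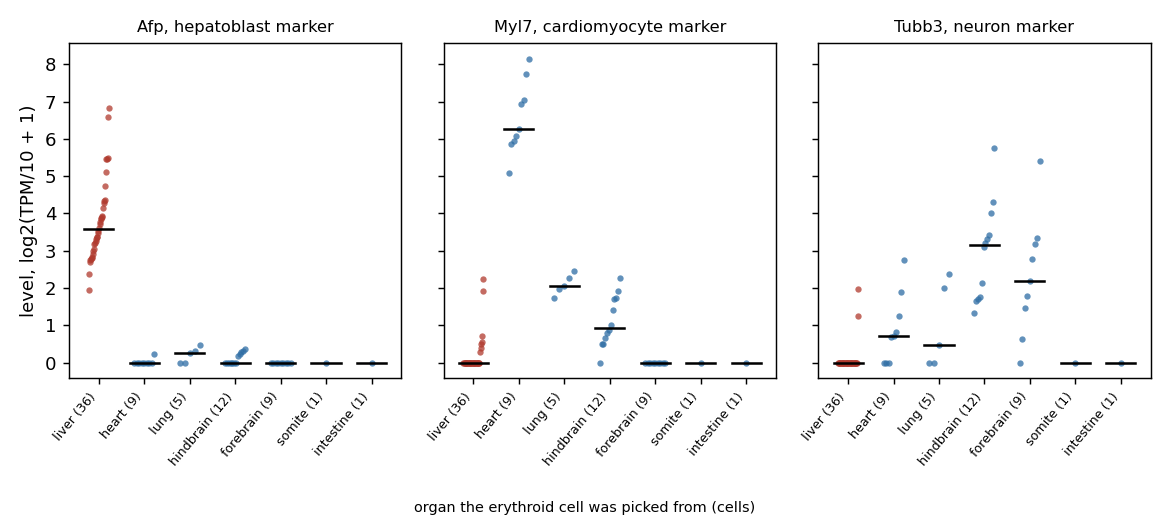
Levels (log2(TPM/10 + 1), vertical axis) of Afp, Myl7 and Tubb3 in each erythroid cell by the organ it was picked from, with the number of cells in brackets, liver in red, other organs in blue and black bars for medians. Afp is above 1.9 in liver cells alone, Myl7 is above 5 in heart cells alone, and Tubb3 is highest in hindbrain and forebrain cells.

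The transcripts lower in liver included several known from neurons. Alpha tubulin Tuba1a had liver means of 2.90, 3.20, 2.20, 0.55 and 1.69 and other means of 3.01, 3.48, 5.87, 4.40 and 6.00 (difference -2.54 ± 0.41, adjusted p = 0.00192, limma), and these groups overlapped. The brain creatine kinase Ckb (-2.45 ± 0.42), neuronatin (Nnat, -2.44 ± 0.43), the microtubule protein Map1b (-2.23 ± 0.38), Tubb3 (-1.83 ± 0.39), the ubiquitin hydrolase Uchl1 (-1.48 ± 0.32) and Stmn2 (-1.15 ± 0.25) are known from neurons. Stmn2 had no UMI in any liver erythroid cell, so it entered the test through other organs alone and the gene filter gave its sign. Tubb3 had a UMI in 2 of 36 liver cells, fewer than the 3 cells that the filter needs. It thus also entered through other organs alone, with its sign given by the filter. The size of the Stmn2 difference depends on the constant added before the logarithm.

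Hsd3b6 (-1.90 ± 0.39), a steroid dehydrogenase, Ccar1 (-1.75 ± 0.39), a regulator of cell cycle and apoptosis, and thymosin beta 10 (Tmsb10, -1.50 ± 0.32) were the others. Map1b was at 2.43 to 2.87 in other organs, and it was highest in E9.5 embryo 1, whose 3 cells came from the heart. Ccar1 was at 1.16 to 2.47 in liver and at 3.32 to 4.19 elsewhere, without overlap, an order shown by 1.84% of genes.

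No gene kept its call between places under every setting, and Afp lost it with day as 3 levels read at E9.5 and at E11.5. With the embryo as a fixed block over the 3 embryos with both places 7 genes were called, and 1 without E11.5 embryo 1 or with HiSeq 4000 means only, Afp in each case. Thinned to 100000 UMIs, 5 genes were higher and 2 lower, and per 1000000 UMIs that are not globin UMIs 5 were higher and 4 lower. On summed UMIs edgeR called 53 genes (0.558%), 16 higher and 37 lower. The part of transcripts of organ-resident cells in these differences was not tested.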

How the data were processed

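Cells were prepared by the study with a modified single-cell tagged reverse transcription protocol, and UMIs were counted at the 3′ end of transcripts. Per the labels and the study's methods the authors ran CASAVA 1.8, aligned trimmed reads to mm10 with TopHat2 2.0.12, keeping unique alignments, and counted UMIs per gene with HTSeq. The HTSeq version, the annotation and the use of strand are not given in the sources used here. The deposited values are CPM (called TPM by the authors), UMIs per 1000000 in each cell, and whole UMIs were recovered for 100% of 11760022 values above 0 within 0.05 UMI. Cells kept and their major groups were taken from the study's list of cells, and embryos from cell names. The series holds 14 pairs of columns with identical UMIs, 1 among the erythroid cells and 2 among the other hematopoietic cells, and each pair was counted once.

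L was averaged per embryo and place where at least 3 cells were present. Genes at L of 1 in at least 3 cells were fitted in limma 3.58.1 (R 4.3.3) with place, day centred on 10.5 and their interaction over 10 means, and p-values were adjusted by Benjamini-Hochberg over all 9500 genes. Calls needed adjusted p under 0.05 and a difference of 1 or a slope of 0.5. Recovered UMIs summed per mean were tested in edgeR 4.0.16 with its quasi-likelihood test, which called 53 genes between places, 21 and 38 for the slopes in liver and other organs and 20 for their difference. Single values were compared by exact permutation tests in Python 3.11.15 with scipy 1.17.1, numpy 2.4.6 and pandas 2.3.3. The scripts were tested on simulated data. Since the pseudocount is 1 on TPM/10, differences of low genes are understated.

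Liver and other organs of the same numbered embryo come from 1 animal by the labels, so the numbers pair the means in 3 embryos. Residuals of paired means correlated at -0.03, 0.03 and 0.05, and the consensus correlation was 0.0907. The replicate numbers are the embryo numbers of the labels. P-values measure the spread of embryo means about the fit, which also holds the sampling of few cells and, outside the liver, the makeup of organs. There were few embryos per day, with a single mean for liver at E9.5 and for other organs at E11.5.

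Named genes were the 10 largest calls in each direction between places among those with the same sign in every embryo with both places, the 6 largest in each direction for each slope, the 10 largest differences from other hematopoietic cells, and members of the described lists. Some genes that this rule takes in are not reported here. The members, lists and rules were chosen with earlier results of these data known. Some cells near the ranges of Hbb-y, and Hba-x or Hbb-bh1 in single cells, were singled out after their values were seen. Alternatives covered the pseudocount, gene filter, limits of the rule, thinning, globin UMIs, platform, block, day coding and each embryo left out.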

Additional observations from a re-analysis of the deposited data

Results flagged for a closer look

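In 15 of 82 groups of 4 or 5 embryo means, the highest or lowest mean stood apart from the rest by Dixon's criterion. Chance does so in about 5% of independent groups. The groups here share embryos and hold genes named for slopes or differences in these same means, so that rate is no yardstick for the 15. Of these, 7 were the E11.5 embryo 1 mean of other organs: its globin share was 31.4%, and its levels were 13.16 for Hbb-y, 1.05 for Tspo2, 2.29 for Nhp2, 1.54 for Lyar, 2.66 for 4930455G09Rik and 1.35 for Il1bos. That mean is the only E11.5 mean outside the liver. In other organs of E9.5 embryo 2 the hepatoblast transcripts Afp, Apoa1 and Ttr stood at 0.18, 0.0979 and 0.18, against 0.00 in the other 4 means. Outside the liver, Afp had UMIs in 5 hindbrain, 3 lung and 1 heart erythroid cell. The cells of this mean had a median of 783454 UMIs, the highest among the other organs. The part of depth or organ in these levels was not tested. In liver, single means stood apart for Tubb3 (0.42, E10.5 embryo 1), Exosc7 (1.24, E10.5 embryo 2), Ackr3 (1.16, E11.5 embryo 2), 4930455G09Rik (0.71, E11.5 embryo 2) and Dcx (0.0996, E9.5 embryo 3).

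The slope on day differed between liver and other organs, by limma's test of the difference, for Hbb-y (-4.23 per day), Hba-x (-3.26), Pdzk1ip1 (-3.15) and Mrap (3.10).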

How the results depend on the processing

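The counts of called genes rest on few embryos and on the setting, and depth limits genes at 1 or 2 UMIs in a cell. Between places 16 genes were called at the settings above, 38 with log2(TPM + 1), 3 without a gene filter, 30 with L of 1 in at least 10% of cells, 53 by edgeR, 7 in thinned cells, 9 without globin UMIs, 1 with HiSeq 4000 means only, 2 without E11.5, 7 with a fixed replicate block, and 0, 1 and 26 with day as levels read at E9.5 (987 had an unadjusted p under 0.05), E10.5 and E11.5. Slopes in liver gave 24, 0 without a gene filter (1093 had an unadjusted p under 0.05), 39 with the 10% filter, 38 in thinned cells, 14 without globin UMIs, 0 with HiSeq 4000 means only (742 under 0.05) and 6 between E10.5 and E11.5. Slopes in other organs gave 86, 0 without a gene filter (2169 under 0.05), 139 with the 10% filter, 38 by edgeR, 0 with HiSeq 4000 means only (824 under 0.05) and 6 between E10.5 and E11.5. The difference of slopes gave 4, 0 without a gene filter (1769 under 0.05), 18 with the 10% filter, 20 by edgeR, 2 in thinned cells and 0 with HiSeq 4000 means only (862 under 0.05). The replicate block by duplicateCorrelation gave 23, 24, 84 and 4 calls.

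Leaving out each embryo gave 1 to 11, 2 to 28, 0 to 228 and 0 to 6 calls. The lowest counts came without E11.5 embryo 1 in all 4 comparisons and, for the slope in other organs, also without E9.5 embryo 2. Where limma called 0 without an embryo, 477 to 1569 genes had an unadjusted p under 0.05. Among alternatives for named genes, 600 kept direction and call, 350 lost the call and 1 turned its direction, Hsd3b6 between places read at E9.5 (0.053). Alternatives with at least 1 cell per mean or an adult beta globin share under 50% held the same 73 cells and 10 means. These could only count as kept, and they are among the 600. Among single values, the difference in globin share was -0.500 percentage points without E10.5 embryo 2 and -0.500 to 12.6 over embryos left out. The difference in log10 UMIs was 0.0413 with HiSeq 4000 means only and -0.139 to -0.0253 with embryos left out, and the difference in detected genes was 6.97 in the 2 embryos with this value in both places and -561 to -307 with embryos left out. The adult share of beta globin was 0 without E11.5 embryo 1 and 0.0153 to 0.0191 without any of the others. At least 5 cells per mean left too few means for a fit. The median slope of all genes in other organs was -0.16, and -0.41 with log2(TPM + 1), 0.01 by edgeR and -0.08 in thinned cells. Causes of these changes were not tested.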

Other observations

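A cell that the study kept outside its hematopoietic group also met the limits on the 3 genes. It was a forebrain cell of E11.5 embryo 1 placed among neuronal cells, with Alas2 at 5.75, Slc4a1 at 3.76 and Fcer1g at 0, and with Hbb-y at 12.02, Hba-x at 9.70 and Hbb-bh1 at 9.70. It entered no comparison. Among the hematopoietic cells outside the rule, 1 had Hbb-y at 10 or more.

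In the heart cell with Hbb-y at 7.36, Hba-x was at 5.84 and Hbb-bh1 at 4.86, so that all 3 embryonic globins were below their range in the other 8 heart erythroid cells. The 3 low cells of liver E11.5 embryo 2 held Hba-x at 7.38 to 7.73 and Hbb-bh1 at 8.67 to 10.1, both above the medians of 5.39 and 6.16 over all 27 low cells.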
